A study of Mus musculus with 10 samples.

Results

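The comparison described here sets the immortalized bone marrow-derived macrophage (iBMDM) libraries labelled sgWdr4-2 against those labelled WT. It uses 4 of the 10 libraries of the series, namely the input RNA and the footprint library of each line, chosen by their labels. sgWdr4-2 is the second of 2 guide RNAs against Wdr4, delivered by lentivirus to monoclonal iBMDM lines that were then selected with puromycin. The WT line is described only as a wild-type control group, so whether it carries a guide or a vector is not known. The rest of the series holds an input and a footprint library of a line with the guide sgWdr4-1, and the same pair from F4/80-sorted tumour-associated macrophages (TAM) of orthotopic Hepa1-6 hepatoma tumours in Wdr4 cKO mice, which lack Wdr4 in myeloid cells, and of Wdr4 ff mice, the floxed controls. Each column is 1 library of what may be 1 clone, so every difference below is one between single libraries, with no replicate, no SD and no p-value. Read depth is not known, because the deposited unit, TPM (transcript abundance scaled for length and to a fixed total), keeps none.

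Wdr4 encodes the partner of Mettl1, the enzyme that places 7-methylguanosine in the variable loop of a subset of tRNAs. The mark is known to stabilise those tRNAs, and its loss is known to slow decoding of the codons they read. In ribosome profiling, cells are lysed, RNase digests the mRNA that ribosomes do not cover, and the protected footprints are sequenced. Input RNA, here polyadenylated, gives the amount of each mRNA, and footprints relative to input give its translation efficiency. Translation efficiency was taken as log2(footprint TPM + 1) minus log2(input TPM + 1) in each line, and its change as sgWdr4-2 minus WT.

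Wdr4 input RNA was 44.5 TPM in the library labelled sgWdr4-2 and 44.6 TPM in the one labelled WT. Wdr4 footprints were 26.9 TPM in sgWdr4-2 and 13.3 TPM in WT, a translation efficiency change of 0.96. Its input was thus level and its footprints were higher in the line labelled as targeted. These values do not check the edit itself, because TPM per gene cannot show a small insertion or deletion. Mettl1 input was 58.2 TPM in sgWdr4-2 and 60.5 TPM in WT, and its footprints were 82.3 and 98.2 TPM in the same order. All directions below are between libraries that carry these labels.

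Most markers of the cell type on the labels were at or near 0. Of 22 macrophage markers, 18 were under 1 TPM in all 4 libraries and 8 were listed at 0 in all 4, among them Adgre1, which encodes F4/80, Ptprc, which encodes CD45, and Tyrobp. The macrophage markers summed to 628 TPM of input in sgWdr4-2 and 590 TPM in WT, of which Lgals3 alone gave 607 and 569 TPM. Cd14, a lipopolysaccharide co-receptor, was the other macrophage marker at 5 TPM or more, with 16.96 TPM of input in sgWdr4-2 and 18.6 TPM in WT and 16.4 and 13.1 TPM of footprints. The 14 fibroblast and stellate cell markers summed to 6670 TPM of input in sgWdr4-2 and 6549 TPM in WT, with Acta2, smooth muscle actin, at 2462 and 2397 TPM and Vim, vimentin, at 2165 and 2116 TPM. Of these 14, 6 were under 5 TPM in all 4 libraries, namely Dcn, Lum, Pdgfra, Fap, Des and Thy1, the last listed at 0 in all 4. In footprints the same markers summed to 5443 TPM in sgWdr4-2 and 6615 TPM in WT, and the macrophage markers to 471 and 351 TPM. Hepatocyte and hepatoma markers summed to 112 TPM of input in sgWdr4-2 and 118 TPM in WT, and to 25.8 and 76.0 TPM of footprints. Markers of T cells summed to at most 6.02 TPM in any of the 4 libraries and those of endothelial cells to at most 2.70 TPM. B and plasma cell, NK cell, neutrophil and dendritic cell markers summed to at most 1.92 TPM. The part of cell identity in the results was not tested.

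A gene entered when its mean over the 2 inputs and its mean over the 2 footprint libraries were each at least 5 TPM. Of 21934 symbols, 8874 passed for input, 7725 for footprints and 7383 for both. Just outside lay Gpam and Sec22c, with mean footprints of 4.999 and 4.9995 TPM, and just inside lay Mfsd2a and Pdcd11, at 5 and 5.0005 TPM. Of the 7383 genes, 1 had footprints under 1 TPM in sgWdr4-2 and 6 in WT, so few had footprints in 1 line alone. Some genes still reached the footprint filter only through the line where they were higher, which favours large changes. Among them below are Ppcdc, Nkain1, Isg20, Hspa1b, Ifit2 and Ccl7, with more footprints in sgWdr4-2. Rnaset2b, Fez1, Arhgap21, Col4a2, Adat3, Eif4g3, Knl1 and Zfp1, with more footprints in WT, are others. A gene was counted as higher or lower when it was at least 2-fold apart, which is 1 on the log2 scale. For translation efficiency Ctxn1 lay just short of that line at 0.999949 and Nudt4 just past it at 1.00037.

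Input RNA of the lines was nearly the same, and footprints were not. In input RNA 1 gene was at least 2-fold higher in sgWdr4-2 (0.0135% of genes) and 3 were lower (0.0406%). In footprints 229 genes were higher (3.1%) and 346 lower (4.69%). In translation efficiency 265 genes were higher (3.59%) and 360 lower (4.88%). The robust SD of the log2 changes over genes was 0.095 in input, 0.51 in footprints and 0.53 in translation efficiency. Across the 7383 genes, log2 levels in sgWdr4-2 and WT correlated at r = 0.997 in input, 0.954 in footprints and 0.875 in translation efficiency, given as a description, since genes are not replicates and share a library.

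Changes in translation efficiency between the lines labelled sgWdr4-2 and WT were mostly changes in footprints. Of the 265 genes counted as higher, 207 also had footprints at least 2-fold higher and 3 had input at least 2-fold lower. Of the 360 counted as lower, 297 had footprints at least 2-fold lower and 1 had input at least 2-fold higher. The median input change was -0.04 among the higher and 0.03 among the lower genes.

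**Figure D1:**
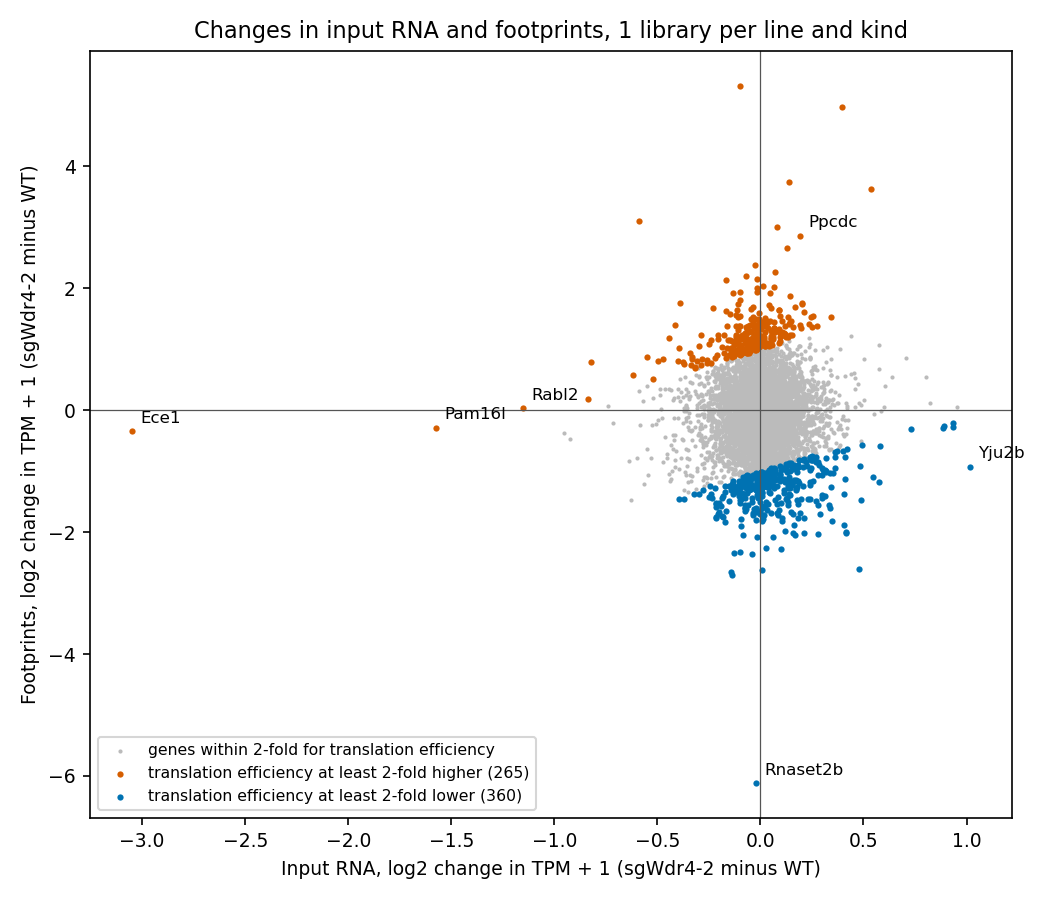
Each point is 1 of 7383 genes, with its log2 change in input RNA on the x axis and in footprints on the y axis, sgWdr4-2 minus WT. Orange marks the 265 genes at least 2-fold higher and blue the 360 at least 2-fold lower for translation efficiency. Points spread up and down far more than sideways, and Ece1, Pam16l, Rabl2 and Yju2b lie apart on the x axis.

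The spread of changes depended on the footprint level. At mean footprints of 5 to 10 TPM the robust SD of translation efficiency changes was 0.59, with 4.93% of 1501 genes higher and 7.86% lower. At 50 to 100 TPM it was 0.44, with 2.30% of 868 genes higher and 1.73% lower. At 500 TPM and over it was 0.50 over 323 genes, so the spread did not shrink further at the highest levels. The median change was -0.12 at 5 to 10 TPM and 0.17 at 500 TPM and over, where it was 0.05 over the 256 genes that are not cytosolic ribosomal proteins.

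**Figure D2:**
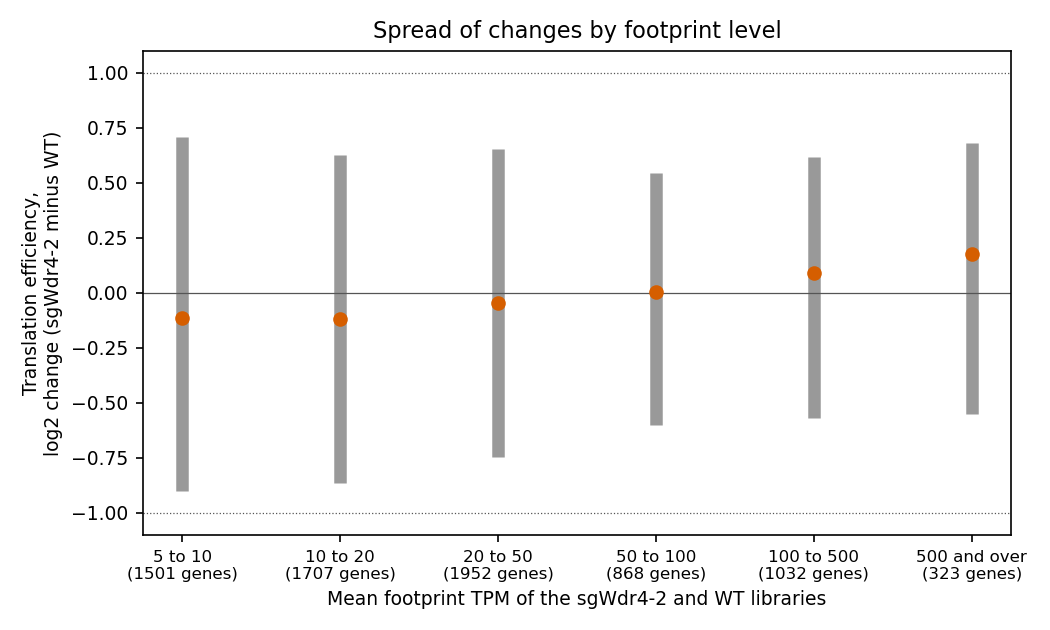
Translation efficiency changes (log2, sgWdr4-2 minus WT, y axis) by mean footprint TPM of the 2 libraries (x axis). Points are medians, bars span the 10th to the 90th percentile of genes, and dotted lines mark 2-fold. In every bin the bar stays within 2-fold, and it reaches lowest at 5 to 10 TPM (-0.90).

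The 4 genes past 2-fold in input RNA did not have matching footprints. Ece1, an endothelin-converting protease, had 21.8 TPM of input in sgWdr4-2 against 188 TPM in WT, and 34.1 TPM of footprints in sgWdr4-2 against 43.7 TPM in WT. Its input change was -3.05 and its footprint change -0.35, so its translation efficiency change of 2.70 came from its input. It was the highest among genes with means of at least 10 TPM, leaving out histones, mitochondrially encoded genes, gene models and pseudogenes. Rabl2, a small GTPase of cilia, had 15.4 TPM of input in sgWdr4-2 against 35.4 TPM in WT, while its footprints were 45.8 and 44.9 TPM. Both genes were also lower in input elsewhere, Ece1 by -1.32 under sgWdr4-1 against the same WT and by -1.25 in Wdr4 cKO against Wdr4 ff, and Rabl2 by -1.08 and -1.92.

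Pam16l, named for the mitochondrial import motor subunit Pam16, had 14.5 TPM of input in sgWdr4-2 against 45.2 TPM in WT. Its copy Pam16 had 41.8 TPM in sgWdr4-2 against 12.8 TPM in WT. Summed, the pair had 56.3 TPM of input in sgWdr4-2 and 58.1 TPM in WT, so the change of either copy is uncertain, as reads may be split between them. Yju2b, related to the splicing factor Yju2, was the 1 gene higher in input, at 18.6 TPM in sgWdr4-2 against 8.67 TPM in WT, and its footprints were 7.005 and 14.2 TPM. In Yju2b and Ece1 the line with more input thus did not have proportionately more footprints.

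Of the 12 genes ranked highest for translation efficiency by the same limits, all but Ece1 had footprints several times higher in the library labelled sgWdr4-2, with input that differed much less. Ppcdc, an enzyme of coenzyme A synthesis, had 19.6 TPM of footprints in sgWdr4-2 against 1.84 TPM in WT, with input at 15.7 and 13.6 TPM (change 2.67). Its WT value was the lowest of the 12 highest-ranked genes, and Nkain1, which binds a sodium pump subunit, came next with 20.6 TPM in sgWdr4-2 against 3.17 TPM in WT (2.40). Heatr1, a factor of small ribosomal subunit assembly, had 30.7 TPM of footprints in sgWdr4-2 against 5.92 TPM in WT, with 74.2 and 77.8 TPM of input (2.26).

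Zinc finger genes were 3 of these 12. Zfp428 had 28.8 TPM of footprints in sgWdr4-2 against 5.80 TPM in WT (2.29), Zfp771 had 47.6 against 9.92 TPM (2.17), and Zfp414 had 33.3 against 8.01 TPM (2.06). Of 79 numbered Zfp genes tested, 8 were higher (10.1%, against 3.59% of all genes) and 7 lower (8.86%, against 4.88%), with Zfp260 (-1.95), Zfp444 (-1.66) and Zfp1 (-1.66) the lowest, and their median was 0.04, or 0.20 with a mean of at least 20 TPM. Vhl, the substrate receptor of the ubiquitin ligase that degrades hypoxia-inducible factors, had the most footprints of the 12, at 88.2 TPM in sgWdr4-2 against 21.2 TPM in WT (2.02). The others were Isg20, an interferon-induced exonuclease (2.15), Fam8a1, a partner of an endoplasmic reticulum (ER) ubiquitin ligase (2.03), Rflnb, a filamin-binding protein (2.02), and Rcbtb2 (1.96).

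At the other end, footprints were lower in the library labelled sgWdr4-2, with input that differed much less. Acsbg1, an acyl-CoA synthetase, had 5.68 TPM of footprints in sgWdr4-2 against 42.6 TPM in WT, with input at 16.2 and 17.9 TPM (-2.57). Sema7a, a membrane-anchored semaphorin, had 9.31 TPM in sgWdr4-2 against 64.1 TPM in WT (-2.52). Nipa2, a magnesium transporter, had 17.3 TPM in sgWdr4-2 against 88.3 TPM in WT (-2.38). In each of these 3 the input differed far less than the footprints.

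Socs6, an adaptor of cytokine receptor signalling, had 10.9 TPM of footprints in sgWdr4-2 against 42.5 TPM in WT, and its input was 44.0 TPM against 32.9 TPM, so input and footprints went opposite ways (-2.28). The same held for Dtx3, a ubiquitin ligase of the Deltex family, with footprints of 5.30 TPM in sgWdr4-2 against 24.1 TPM in WT and input of 24.5 against 18.2 TPM (-2.41). The remaining genes of the 12 lowest were Ino80b, of the INO80 chromatin remodeller (-2.32), Celf2, an RNA-binding splicing regulator (-2.23), Rusc2 (-2.23), Fez1, a kinesin adaptor (-2.21), Arhgap21 (-2.21), and Col5a1, a chain of collagen V (-2.18). Rnaset2b, a ribonuclease of the T2 family, ranked lowest (-6.09), at 0.002 TPM of footprints in sgWdr4-2 against 68.5 TPM in WT. Its near-identical copy Rnaset2a had 84.7 TPM in sgWdr4-2 against 57.9 TPM in WT, and the pair summed to 84.7 and 126 TPM, so the Rnaset2b value is uncertain.

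**Figure D3:**
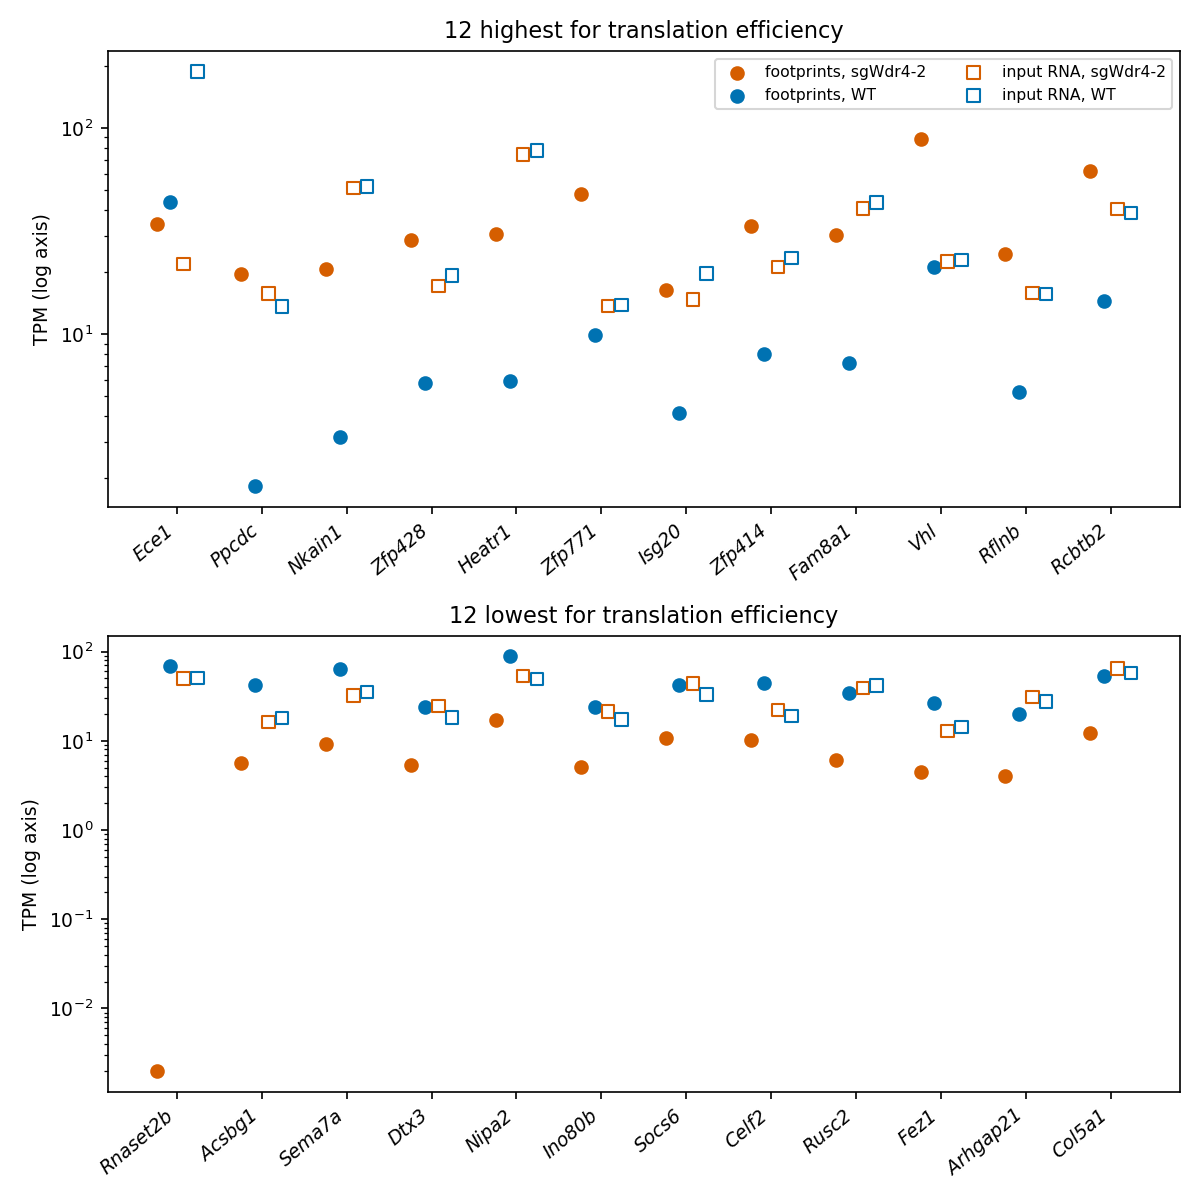
TPM (log axis) of the 12 highest and the 12 lowest genes for translation efficiency, with footprints as filled circles and input RNA as open squares, sgWdr4-2 in orange and WT in blue. The squares of a gene lie far closer than its circles except for Ece1 (21.8 TPM of input in sgWdr4-2, 188 TPM in WT). Input still differed in some, as in Dtx3 (24.5 and 18.2 TPM), Socs6 (44.0 and 32.9 TPM) and Isg20 (14.7 and 19.7 TPM), in the same order.

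Gene groups were described by the number of members past 2-fold, by their median change and by how many lay above or below the median of all genes (-0.04), a line that 50% of all genes tested lie on either side of. The shares past 2-fold are to be read against 3.59% of all genes higher and 4.88% lower. No group was tested, and a share near that of all genes shows nothing of its own.

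Cytosolic ribosomal proteins, the protein subunits of the cytoplasmic ribosome, were higher for translation efficiency in the library labelled sgWdr4-2. Of 75 tested of 81, 5 were past 2-fold higher (6.67%, against 3.59% of all genes) and 0 lower (against 4.88%), 70 lay above the median of all genes, and the group median was 0.50. Their input median change was -0.0016, and as a share of each library they took 16.7% of input in both lines and 14.2% of footprints in sgWdr4-2 against 9.94% in WT. Rps12 had 4836 TPM of footprints in sgWdr4-2 against 1896 TPM in WT (1.38), Rpl37 had 634 against 281 TPM (1.38), and Rplp1 had 2097 against 920 TPM (1.21). Rpl24 went the other way, with 608 TPM in sgWdr4-2 against 1044 TPM in WT (-0.75). Many ribosomal protein genes have near-identical pseudogenes, so single values are uncertain: Rpl9-ps6, a pseudogene of Rpl9, had 45.7 TPM of footprints in sgWdr4-2 against 4.43 TPM in WT.

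Ribosomal protein mRNAs are known to start with a pyrimidine tract, the terminal oligopyrimidine motif, through which mTOR signalling controls their translation. RefSeq start sequences (GRCm38.p6) of 46 of the tested ribosomal protein genes with 1 annotated start were searched for a C at the first base followed by at least 4 pyrimidines (C or T) on the gene's strand. The motif was found in 12 of 46 (26.1%), against 2.51% of all 32851 promoter sequences, and annotated starts may lie off the true ones. The 4 of these with the most footprints are shown with 2 ER chaperones, which lay on the other side of the median. Each line gives 10 bases before the start in lower case and 20 from it, with the unbroken pyrimidine run at the start in capitals.
Rplp2: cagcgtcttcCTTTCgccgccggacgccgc
Rpl38: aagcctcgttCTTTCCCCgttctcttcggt
Rpl35: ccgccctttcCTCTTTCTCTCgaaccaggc
Fau: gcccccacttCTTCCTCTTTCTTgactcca
Calr: cgggctcagcggctgtgtcaggttcgggtg
Hsp90b1: accgcgctgcTggaggtgtgaggagcttag
They lie at chr7:141447641-141447670 (plus strand), chr11:114668570-114668599 (plus), chr2:39005112-39005141 (minus), chr19:6057937-6057966 (plus), chr8:84846912-84846941 (minus) and chr10:86705425-86705454 (minus). Their translation efficiency changes were 0.67 for Rplp2, 0.66 for Rpl38, 0.29 for Rpl35, 0.54 for Fau, -0.27 for Calr and -0.69 for Hsp90b1. The motif did not separate the ribosomal protein genes, whose median was 0.54 with it and 0.53 without it. Among 4679 other genes with 1 start, the 114 with the motif had a median of 0.07 and those without it -0.05. No match says only that these letters are not at the annotated start.

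Other parts of the translation machinery leaned the same way by less. The list of elongation and termination factors had a median of 0.39 over 12 genes, 11 of them above the median of all genes. Its 1 gene past 2-fold was Tpt1 (8.33%, against 3.59% of all genes), which is not itself such a factor. Tpt1 carries a terminal oligopyrimidine motif and had 2172 TPM of footprints in sgWdr4-2 against 1042 TPM in WT (1.08). Eif5a, the hypusine-bearing elongation factor, had 3730 against 2153 TPM (0.73), and Eef1a1, which brings aminoacyl-tRNA to the ribosome, had 3044 against 2357 TPM (0.35). Mitochondrial ribosomal proteins were at 0.22 over 78 genes, with 54 above the median of all genes. Of these, 3 were past 2-fold higher (Mrpl36, Mrps18b and Mrpl15), a share of 3.85% that is near the 3.59% of all genes, and 0 were lower. Ribosome biogenesis factors were at 0.17 over 47 genes and initiation factors at 0.10 over 35, where Eif4g3, a scaffold of the cap-binding complex, had 2.40 TPM of footprints in sgWdr4-2 against 8.59 TPM in WT (-1.77), and Eif3c, of the initiation factor 3 complex, had 69.8 against 143 TPM (-1.02).

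tRNA enzymes, the class to which the targeted gene belongs, stayed near the median of all genes. Aminoacyl-tRNA synthetases, which load amino acids on tRNA, were at -0.11 over 20 genes with 0 past 2-fold. The 43 tRNA modification genes tested were at -0.08, a value that turned to 0.0025 with a mean of at least 20 TPM. Of these, 2 were past 2-fold lower, a share of 4.65% that is near the 4.88% of all genes. They were Alkbh1, a dioxygenase of modified bases in tRNA, with 21.5 TPM of footprints in sgWdr4-2 against 60.2 TPM in WT (-1.74), and Adat3, a subunit of the wobble adenosine deaminase, with 3.61 against 12.4 TPM (-1.72).

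Lipid synthesis genes leaned higher for translation efficiency in the library labelled sgWdr4-2. Cholesterol synthesis genes had a median of 0.56 over 23 genes, with 5 past 2-fold higher (21.7%, against 3.59% of all genes), 0 lower and 20 above the median of all genes. Nsdhl, a sterol dehydrogenase, had 23.5 TPM of footprints in sgWdr4-2 against 8.46 TPM in WT (1.49), and Acat2, an acetoacetyl-CoA thiolase, had 122 against 44.7 TPM (1.40). Mvd and Idi1, successive enzymes of isoprenoid synthesis, were at 1.26 and 1.19, with 263 TPM of Idi1 footprints in sgWdr4-2 against 119 TPM in WT. Ebp, a sterol isomerase, was at -0.70, so the list was not uniform. Fatty acid synthesis genes were at 0.34 over 14, with Elovl6, a fatty acid elongase, at 97.1 TPM of footprints in sgWdr4-2 against 28.7 TPM in WT (1.68).

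**Figure D4:**
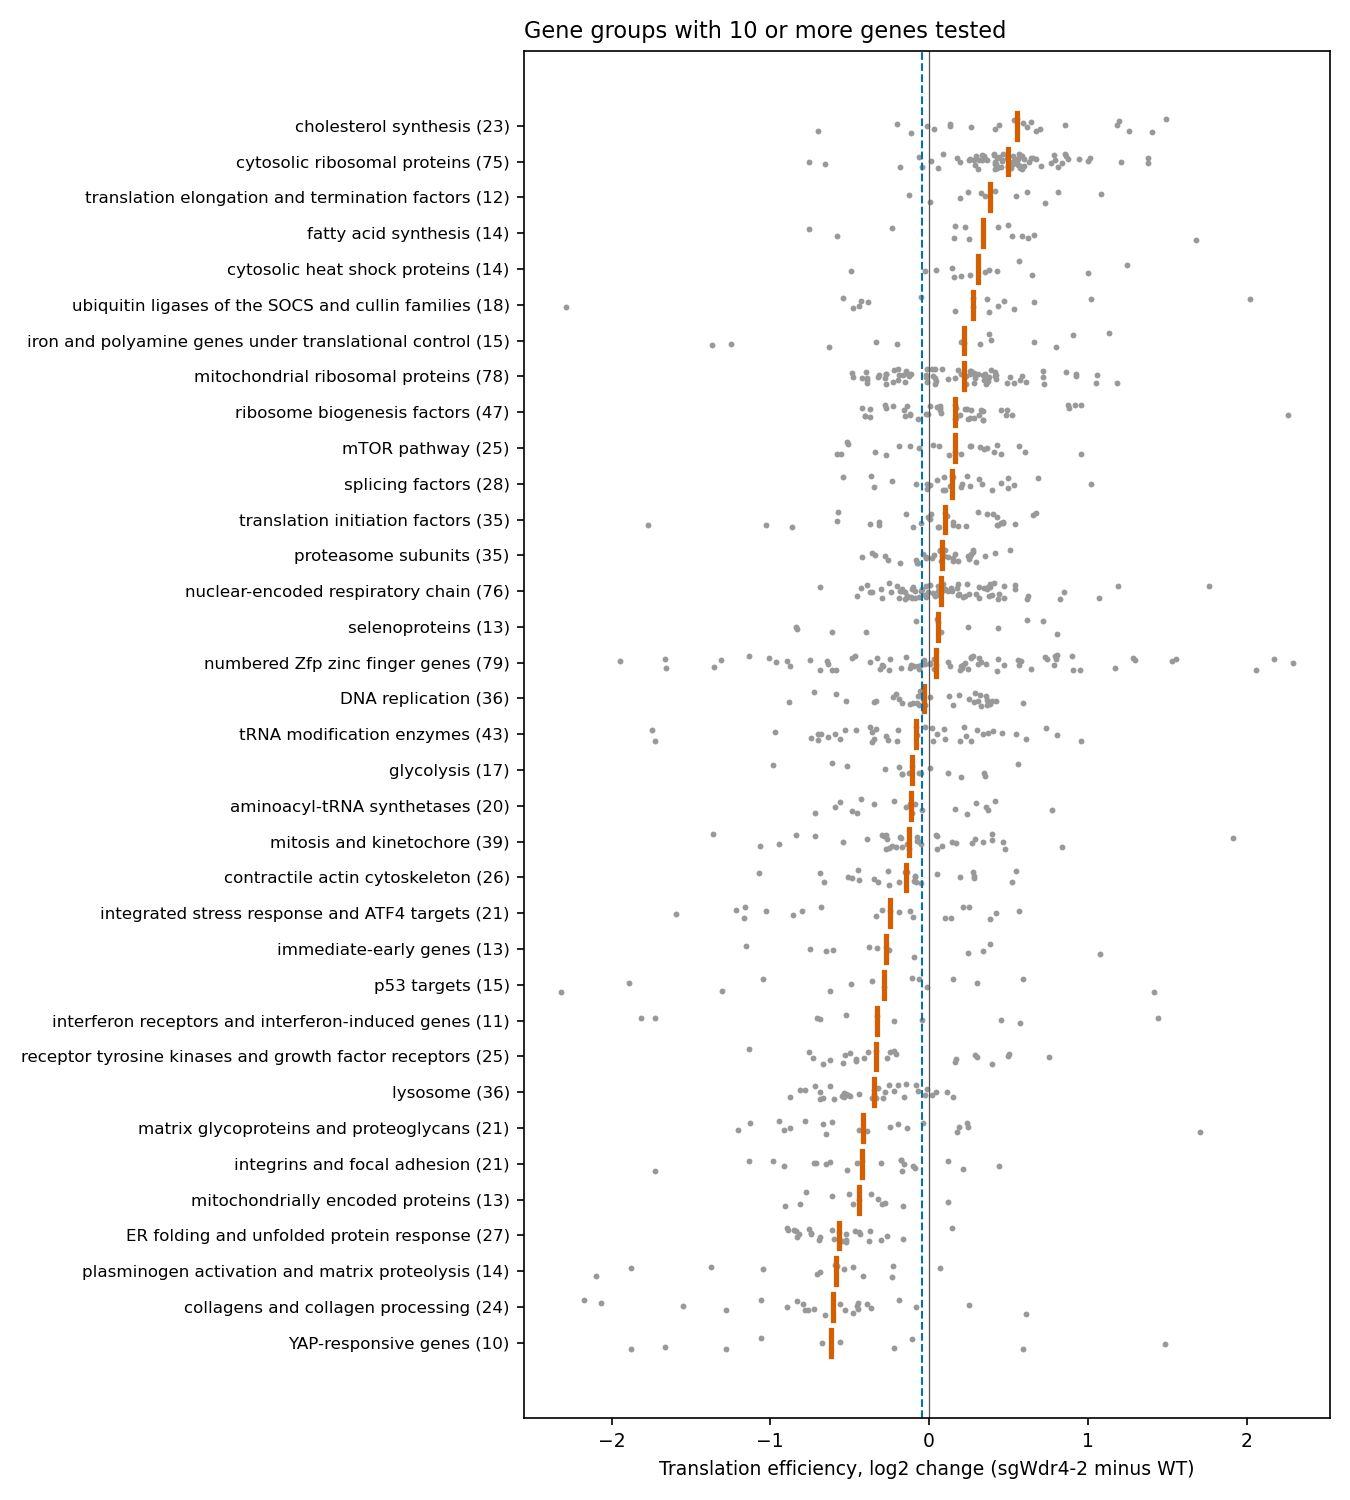
Translation efficiency change (log2, sgWdr4-2 minus WT, x axis) of every tested member (grey points) of the gene groups with 10 or more genes tested, whose number is given in brackets. Orange bars are group medians and the dashed blue line is the median of all genes. Cholesterol synthesis (0.56) and cytosolic ribosomal proteins (0.50) lie at the top, and collagens (-0.61) and YAP-responsive genes (-0.62) at the bottom.

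ER folding and unfolded protein response genes lay on the lower side. Of 27 tested, 0 were past 2-fold in either direction, yet 26 lay below the median of all genes, and the group median was -0.57. The chaperone Hsp90b1 had 1564 TPM of footprints in sgWdr4-2 against 2583 TPM in WT, Hspa5, the ER HSP70 BiP, had 681 against 1101 TPM (-0.61), and Pdia6, a disulfide isomerase, had 467 against 860 TPM (-0.89). Sec61a1, the channel of the translocon, was at -0.74, and Sec61b, a small subunit of it, was the 1 member above the line (0.14). Input of these genes was level, with a median of -0.0007 and changes between -0.11 and 0.21. Genes at 100 to 500 TPM of footprints, the range that holds the median member, had a median of 0.09 over 1032 genes.

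Cytosolic chaperones lay mostly on the other side of the line. All 8 tested subunits of the TRiC chaperonin, which folds actin and tubulin, lay above the median of all genes, between 0.0046 and 0.42. Cytosolic heat shock proteins were at 0.31 over 14 genes, with 2 past 2-fold higher (14.3%, against 3.59% of all genes), 0 lower and 13 above. Hspa4l, a nucleotide exchange factor, had 44.7 TPM of footprints in sgWdr4-2 against 22.7 TPM in WT (1.0009, just past 2-fold). Hspa1b, an inducible HSP70 with a near-identical copy, had 8.02 against 2.58 TPM (1.25). It passed the footprint filter only through sgWdr4-2, where it was higher.

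Collagens and their processing enzymes had a median of -0.61 over 24 genes, with 5 past 2-fold lower (20.8%, against 4.88% of all genes), 0 higher and 22 below the median of all genes. Col5a1 had 12.3 TPM of footprints in sgWdr4-2 against 52.9 TPM in WT, and Col4a2, a basement membrane collagen, had 3.11 against 16.4 TPM (-2.07). Col4a2 passed the footprint filter only through WT, where it was higher. Its partner chain Col4a1 had 14.9 against 53.1 TPM (-1.55), and Col5a2 had 146 against 355 TPM (-1.28). The fifth was Col18a1 at -1.06, and the abundant Col1a1 had 680 TPM in sgWdr4-2 against 1116 TPM in WT (-0.72). As a share of the library, these genes took 0.441% of input in sgWdr4-2 and 0.438% in WT, and 0.501% and 0.741% of footprints.

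Other matrix, surface and lysosome genes leaned lower, with some members on the other side in most groups. Matrix glycoproteins and proteoglycans were at -0.42 over 21 genes, with 15 below and 6 above the median of all genes, Fn1, fibronectin, at 109 TPM of footprints in sgWdr4-2 against 259 TPM in WT (-1.20) and Hspg2, perlecan, at 7.99 against 18.8 TPM (-1.13). Fn1 and Hspg2 were the 2 members past 2-fold lower (9.52%, against 4.88% of all genes). Postn, periostin, was the 1 member past 2-fold higher (4.76%, against 3.59%), at 341 TPM in sgWdr4-2 against 107 TPM in WT (1.71). Integrin and focal adhesion genes were at -0.42 over 21, with 18 below and 3 above, Itga5, the fibronectin receptor chain, at 112 against 369 TPM (-1.72) and Itgb7 at 25.99 against 69.0 TPM (-1.13). Lysosome genes were at -0.34 over 36, with 0 past 2-fold, 30 below the median of all genes and 6 above. MHC class I genes, which present peptides to T cells, were at -0.86 over the 5 tested of 14, all 5 below, with H2-D1 at 268 TPM of footprints in sgWdr4-2 against 476 TPM in WT. Growth factor receptors were at -0.33 over 25, with 17 below and 8 above, where Lrp1, an endocytic receptor, had 97.2 against 215 TPM (-1.14).

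Plasminogen activation and matrix proteolysis genes were at -0.59 over 14, with 4 past 2-fold lower (28.6%, against 4.88% of all genes), 0 higher and 13 below the median of all genes. Plau, urokinase, had 26.2 TPM of footprints in sgWdr4-2 against 106 TPM in WT (-2.10), and F3, tissue factor, had 30.8 against 108 TPM (-1.88). Plaur, the urokinase receptor, was at -1.05. The protease and its receptor were thus both past 2-fold lower.

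YAP-responsive genes, targets of the Hippo pathway, were at -0.62 over 10, with 4 past 2-fold lower (40%, against 4.88% of all genes), F3 among them, and 1 higher (10%, against 3.59%). The median was -0.39 with no filter. Ccn2, a matricellular growth factor, had 1096 TPM of footprints in sgWdr4-2 against 3402 TPM in WT (-1.67), and Ccn1, its relative, had 1379 against 3320 TPM (-1.28). Ankrd1, an ankyrin repeat protein, had 204 against 422 TPM (-1.06). Lats2, the kinase that restrains YAP, was on the other side, at 29.8 against 9.82 TPM (1.49). Input of Ccn2 was 999 TPM in sgWdr4-2 and 977 TPM in WT, and that of Ccn1 was 1035 and 1028 TPM.

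Stress response groups were split, with several inducible members lower. Of 21 integrated stress response genes, 5 were past 2-fold lower (23.8%, against 4.88% of all genes) and 0 higher, and the median of -0.25 moved to -0.0001 with a mean of at least 20 TPM. Ppp1r15a, the phosphatase subunit GADD34, had 12.4 TPM of footprints in sgWdr4-2 against 38.8 TPM in WT (-1.59), and Slc3a2, an amino acid transporter chain, had 556 against 1331 TPM (-1.22). Trib3 and Atf3, both ATF4-dependent, were at -1.16 each. The 15 p53 targets had a median of -0.29, which moved to -0.065 with a mean of at least 20 TPM. Of these, 4 were lower (26.7%, against 4.88%) and 1 higher (6.67%, against 3.59%). Cdkn1a, the cell cycle inhibitor p21, was at 10.3 against 56.9 TPM (-2.32) and Pmaip1, the BH3 protein Noxa, at 16.4 against 50.3 TPM (-1.89). Aen, a nuclease, was at 37.1 against 13.3 TPM (1.42). Trib3, Atf3, Cdkn1a and Pmaip1 had under 10 TPM of input in both lines. With a pseudocount of 5 TPM, Atf3 was at -0.90, within 2-fold. Of 13 immediate-early genes, 1 was higher (7.69%, against 3.59% of all genes) and 1 lower (7.69%, against 4.88%), namely Jund (1.08) and Ier3 (-1.16). Their median was -0.27 (-0.38 with a mean of at least 1 TPM), with 9 below the median of all genes.

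Of 25 interferon genes listed, 11 were tested, with a median of -0.33 (-0.52 with a mean of at least 20 TPM) and 8 below the median of all genes. Past 2-fold, 2 were lower (18.2%, against 4.88% of all genes) and 1 higher (9.09%, against 3.59%). Ifnar1, a chain of the type I interferon receptor, had 15.2 TPM of footprints in sgWdr4-2 against 59.8 TPM in WT (-1.81), and Irf3, a transcription factor of the antiviral response, had 7.23 against 20.9 TPM (-1.73). Ifit2, an interferon-induced RNA-binding protein, had 12.7 against 4.24 TPM (1.44) and passed the footprint filter only through sgWdr4-2. Of 28 inflammatory cytokine and chemokine genes listed, 8 were tested, with a median of -0.21 (-0.67 with a mean of at least 20 TPM and 0 with no filter) and 5 below the median of all genes. Past 2-fold, 1 was higher (12.5%, against 3.59% of all genes) and 1 lower (12.5%, against 4.88%). Ptgs2, the prostaglandin synthase COX-2, had 179 against 512 TPM (-1.54), and Ccl7, a chemokine, had 11.1 against 0.92 TPM (2.53) at an input near 5 TPM in both lines. Ccl7 passed the footprint filter only through sgWdr4-2, where it was higher. Its change was 1.37 with a pseudocount of 5 TPM and 2.90 with 0.5 TPM, so its size is uncertain.

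Iron and polyamine genes under translational control had a median of 0.22 over 15, with 10 above the median of all genes. Past 2-fold, 1 was higher (6.67%, against 3.59% of all genes) and 2 lower (13.3%, against 4.88%). The 2 lower ones were ferritins, whose translation the iron-responsive element controls. Fth1, ferritin heavy chain, had 519 TPM of footprints in sgWdr4-2 against 1346 TPM in WT (-1.36), and Ftl1, ferritin light chain, had 99.99 against 232 TPM (-1.25). Ftl1 has pseudogene copies and is uncertain. Amd1, an enzyme of polyamine synthesis, was higher, at 48.2 against 22.3 TPM (1.13).

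Nuclear-encoded respiratory chain genes were at 0.08 over 76, with 3 past 2-fold higher (3.95%, near the 3.59% of all genes), among them Cox7c, a cytochrome oxidase subunit, at 44.0 TPM of footprints in sgWdr4-2 against 13.4 TPM in WT (1.76). Mitochondrially encoded proteins, translated inside mitochondria, were at -0.44 over 13, with 0 past 2-fold and 12 below the median of all genes. They took 10.3% of footprint TPM in sgWdr4-2 and 14.6% in WT, and 5.66% and 6.02% of input. The cytochrome b gene mt-Cytb had 7547 TPM of footprints in sgWdr4-2 against 14857 TPM in WT, and mt-Atp6, an ATP synthase subunit, had 18507 against 17953 TPM. Since TPM sum to 1000000, a smaller share for these leaves a larger summed share for the other genes, but not more for each of them. Cytosolic ribosomal proteins took 14.2% of footprint TPM in sgWdr4-2 and 9.94% in WT. The median footprint change of all genes tested was -0.03. Proteasome subunits were at 0.08 over 35, glycolysis at -0.11 over 17 and DNA replication at -0.03 over 36, each with 0 past 2-fold, and the last turned to 0.0476 with libraries rescaled to the same median. The 39 mitosis and kinetochore genes had a median of -0.13, which turned to 0.0455 with a mean of at least 20 TPM. Of these, 1 was past 2-fold higher (2.56%, against 3.59% of all genes) and 2 lower (5.13%, against 4.88%). Both shares are near those of all genes. Mis12 was higher, at 53.6 against 14.5 TPM (1.91), while Knl1 (-1.36) and Nsl1 (-1.07), of the same kinetochore network, were lower. Knl1 passed the footprint filter only through WT, where it was higher.

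The other comparisons of the series are set beside this one as values. The sgWdr4-1 libraries were compared with the same WT libraries, so likeness between the 2 guides is partly shared control. In addition, the sgWdr4-1 footprint library had 0.781% of its TPM on mitochondrially encoded genes. The TAM table was normalised separately and has its own control, Wdr4 ff. Cytosolic ribosomal proteins were at 0.50 under sgWdr4-2, 0.74 under sgWdr4-1 and 0.52 in Wdr4 cKO. ER folding genes were at -0.57, -0.66 and -0.73 in the same order, collagens at -0.61, -0.77 and -1.08, and cholesterol synthesis at 0.56, 0.47 and 1.08. Integrin and focal adhesion genes were at -0.42, 0.22 and -1.17. The median of all 7383 genes was -0.04, -0.04 and -0.25, and the robust SD was 0.53, 0.96 and 0.68. All of these combine input and footprints, and input was less level in the other comparisons for some genes. Idi1, of cholesterol synthesis, had input changes of -0.05, -0.70 and -0.92 in the same order, and footprint changes of 1.15, 0.49 and 0.83.

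Single genes are set side by side in the same order. Ppcdc was at 2.67 under sgWdr4-2, 2.90 under sgWdr4-1 and 1.43 in Wdr4 cKO, Mis12 at 1.91, 2.34 and 2.05, Sema7a at -2.52, -1.56 and -3.72, and Plau at -2.10, -1.97 and -3.25. Nkain1 was at 2.40, 0.33 and 1.51, Ino80b at -2.32, -0.16 and -0.87, and Nipa2 at -2.38, -2.61 and 0.74. Rps12 was at 1.38, -0.85 and 1.63. Like translation efficiency values did not always rest on like footprints. Plau footprints changed by -1.98, -0.56 and -1.76 and its input by 0.12, 1.41 and 1.49. Sema7a footprints changed by -2.66, -0.60 and -2.15 and its input by -0.14, 0.96 and 1.56. Mis12 input, in contrast, changed little, by -0.10, -0.24 and 0.02. Whether these differ between comparisons could not be tested with 1 library each.

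**Figure D5:**
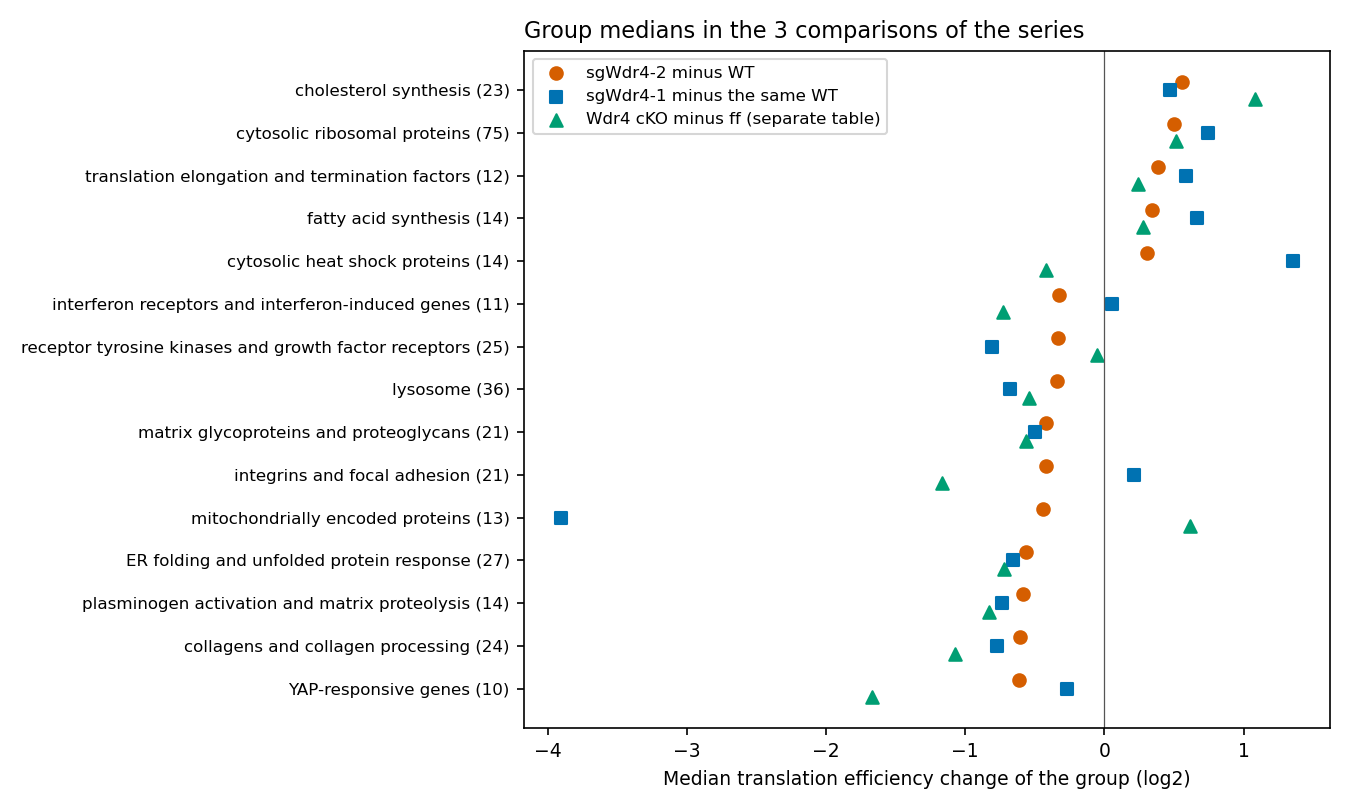
Median translation efficiency change (log2, x axis) of gene groups with 10 or more genes tested and a sgWdr4-2 median at least 0.3 from 0, in sgWdr4-2 minus WT (orange circles), sgWdr4-1 minus the same WT (blue squares) and Wdr4 cKO minus Wdr4 ff from the separate table (green triangles). The mitochondrially encoded genes stand farthest apart, at -0.44, -3.90 and 0.61.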

How the data were processed

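Input RNA was enriched for mRNA, and footprints were RNase I digests then depleted of rRNA, per the labels' protocols. The submitters' processing notes name Bowtie2 and fastp 0.18.0. Quantifier, annotation, genome build and the treatment of multi-mapping reads were not given in the sources used here. The authors deposited TPM, scaled for gene length and to 1000000 per library. TPM keep no depth, so the precision behind each value is unknown. Where a symbol was repeated (20 symbols, 42 rows), its row of highest mean was used. Of the 7383 genes tested, 7188 symbols matched the table of gene identifiers; RefSeq coordinates are given for printed sequences only. Changes were computed on log2(TPM + 1), which understates changes of low genes, with pandas 2.3.3 and numpy 2.4.6 under Python 3.11.15 (plots: matplotlib 3.10.9), and the step was tested on simulated data. With 1 library per column no test was run.

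The members, the 39 gene lists and the 9 cell type lists were chosen with earlier results of these data known. Named genes were the 12 highest and 12 lowest for translation efficiency and the 6 highest and 6 lowest for footprints, with means of at least 10 TPM and leaving out histones, mitochondrially encoded genes, gene models and pseudogenes, every gene past 2-fold in input, up to 4 per list and direction, Wdr4 and Mettl1. Group members within 2-fold, copies of named genes and Col18a1 were named after their values were seen. Alternatives changed the pseudocount, the filter, the scaling and the treatment of repeated symbols. Protein features had been planned and were not computed, since no protein sequences were used here. A few genes under the naming rule are not reported here.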

Additional observations from a re-analysis of the deposited data

Results flagged for a closer look

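Translation efficiency changes went opposite ways between sgWdr4-2 against WT and Wdr4 cKO against Wdr4 ff for 2 named genes past 2-fold in both and for 2 gene groups whose medians were at least 0.3 from 0 in both. These differences were not tested, since each rests on single libraries. Hspa1b, an inducible HSP70 with a near-identical copy, was at 1.25 under sgWdr4-2 and -1.86 in Wdr4 cKO. Pam16l, whose reads may be split with Pam16, was at 1.29 and -1.09. Mitochondrially encoded genes had medians of -0.44 and 0.61. Cytosolic heat shock proteins had medians of 0.31 and -0.42.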

How the results depend on the processing

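No paired analysis was possible because each group is 1 library, and for the same reason no library could be left out. Counts moved most with the filter and the pseudocount. With a mean of at least 1 TPM, 449 genes were higher and 652 lower for translation efficiency, 383 and 600 for footprints, and 13 and 11 for input. With no filter the counts were 584 and 883, 494 and 802, and 31 and 31. With a mean of at least 20 TPM they were 109 and 97, 86 and 96, and 0 higher in input. With a pseudocount of 5 TPM they were 133 and 164, 110 and 157, and 0 and 2. With a pseudocount of 0.5 TPM all 6 counts stayed within 1.5 times. With libraries rescaled to the same median, translation efficiency had 326 higher and 313 lower genes and input 0 higher. After removal of histone, ribosomal protein and mitochondrially encoded genes before rescaling, input had 2 higher genes. With repeated symbols summed, no count moved by more than 1 gene. Of the group medians, 5 turned sign, all of them small: tRNA modification enzymes to 0.0025, DNA replication to 0.0056, mitosis and kinetochore to 0.0455 and selenoproteins to -0.0147 with a mean of at least 20 TPM, and DNA replication to 0.0476 and replication-dependent histones to 0.0263 with the same median. Over all pairs of group and setting, 290 medians stayed within 0.1, 13 moved further and 6 turned sign. Over all pairs of named gene and setting, 649 translation efficiency changes stayed within 0.1, 99 moved further and none turned sign. With a pseudocount of 5 TPM, Arhgap21 moved to -1.60 and Col4a2 to -1.39. The causes were not tested. Depth is unknown, and low genes are the least certain: at 5 to 10 TPM of footprints 4.93% were higher and 7.86% lower.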

Other observations

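Gene families were picked by symbol after their values were seen, and are given as descriptions of these 4 libraries. Solute carriers other than Slc25 had a median translation efficiency change of -0.27 over 78 genes, with 70.5% below the median of all genes, while Slc25 carriers, which are imported into mitochondria, were at 0.14 over 30, with 36.7% below. Glycosyltransferases of the ER and Golgi were at -0.28 over 38 genes and numbered Tmem genes at -0.13 over 97. Sm and Lsm proteins, the cores of spliceosomal and related RNA particles, were at 0.39 over 23 genes, with 22 above the median of all genes. Mitochondrial import genes were at 0.24 over 22, Mediator subunits at 0.29 over 25, RNA polymerase subunits at 0.23 over 29 and Rab GTPases at 0.19 over 35.

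Under sgWdr4-1 and in Wdr4 cKO, Sm and Lsm proteins were at 0.07 and 0.45, and Slc carriers without Slc25 at -0.40 and -0.21. What these families share was not tested.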
